A study of Mus musculus with 342 samples.

Results

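The solute carriers are membrane proteins that move sugars, amino acids, fatty acid derivatives, metals, vitamins, drugs and ions across the cell surface and across the membranes of mitochondria, lysosomes and the Golgi. They are numbered by family (Slc1, Slc2 and so on), and a family shares its fold and usually its kind of substrate. Hepatocytes depend on them to take up nutrients from portal blood, to release glucose, to pass fuel into mitochondria and to hand organic ions on to bile and blood.

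The genes described here are those whose symbol on the array has the form Slc, family number, a, member number. Of 176 such genes, 7 were left out by rule (Slc10a1, Slc22a7, Slc22a5, Slc20a1, Slc13a3, Slc25a23 and Slc1a2). The 169 that remain belong to 44 families and are part of 9093 genes measured. Each gene was read from 1 probe set, the one with the highest mean over all arrays among those that name that gene alone. Slc9a3r1 and Slc9a3r2 match the symbol rule but encode regulators of carriers, not carriers.

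Liver RNA came from male mice, aged about 8 to 10 weeks, of 44 lines of the Collaborative Cross, recombinant inbred mice whose founders were genetically diverse. Each mouse received a single gavage of either 0.5% methylcellulose (vehicle) or TAK-875 (fasiglifam, an agonist of the fatty acid receptor GPR40) at 600 mg/kg in 10 ml/kg, and the liver was collected 24 hours later. Within a line, 1 vehicle and 1 TAK-875 mouse were treated as a pair, with 4 pairs in 39 lines and 3 pairs in 5 lines, so 171 mice received each treatment. The series title gives another compound number, and the sample labels, which say TAK-875, were followed.

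Values are log2 expression on 1 array per mouse, and the number of arrays limits their precision. Array medians lay between 5.40 and 6.22. The correlation of an array with its line and treatment mates had a median of 0.976, and 15 arrays (5 vehicle, 10 TAK-875), each in a different pair, fell under 0.944. Hepatocyte markers were high in every mouse, with a mean over 6 markers of 12.2 to 12.8 in vehicle and 12.0 to 12.8 in TAK-875 mice. Of these 6, Apoa1 and Cyp2e1 rose by 0.06 and 0.04 and Cps1 fell by 0.07. Markers of other liver cells also moved with treatment. Of 10 Kupffer cell and macrophage markers, 9 fell, with a median change of -0.22 and mean levels of 6.36 to 8.81 in vehicle against 5.56 to 8.49 in TAK-875 mice. Of 7 endothelial markers 4 fell, of 6 stellate cell markers 3 fell, and of 3 red blood cell markers 2 fell. Of 4 muscle markers 1 rose (Mylpf, by 0.12), and of 2 kidney or intestine markers 1 rose (Fabp2, by 0.44). The 2 cholangiocyte markers did not pass, with mean levels of 3.36 to 6.77 in vehicle and 3.26 to 6.07 in TAK-875 mice. In whole liver, fewer cells of a type and less RNA per cell cannot be told apart.

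Between treatments, the 3 largest rises among the carriers were those of the monocarboxylate transporters Slc16a5 and Slc16a7 and of the haem transporter Slc48a1. The 3 largest falls were those of the dicarboxylate transporter Slc13a2, the magnesium transporter Slc41a2 and the manganese exporter Slc30a10. The fatty acid genes Slc27a2 and Slc25a20 rose in nearly every line, by 0.27 and 0.26.

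TAK-875 was first compared with vehicle as a mean over lines. For each gene the pair differences were averaged within a line, and the mean of these 44 averages was set against 0 (limma, Benjamini-Hochberg adjusted p of 0.05 over 9093 genes). Changes below are log2 differences, TAK-875 minus vehicle, with the SD over the 44 lines. Of the 169 genes, 63 (37.3%) passed, against 27.1% of all genes measured. There were 25 higher with TAK-875 (14.8%, against 15.3% of all genes) and 38 lower (22.5%, against 11.9% of all genes). The share of higher genes was thus near the background and that of lower genes above it. The changes were small. Their median size was 0.065 over the 169 genes and 0.053 over all genes, and 10 of those called (4 higher, 6 lower) reached 1.2-fold. For none of the 63 did the vehicle and TAK-875 arrays separate, so each change below is a shift between overlapping distributions. The arrays were pooled over 44 lines for this, so spread between lines adds to the overlap. A common direction in at least 40 of 44 lines was seen in 4 of the called genes, Slc27a2, Slc25a20, Slc48a1 and Slc30a10. The counts by fold, by separation and by direction were not made over all genes, so they describe no trait particular to carriers.

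**Figure D1:**
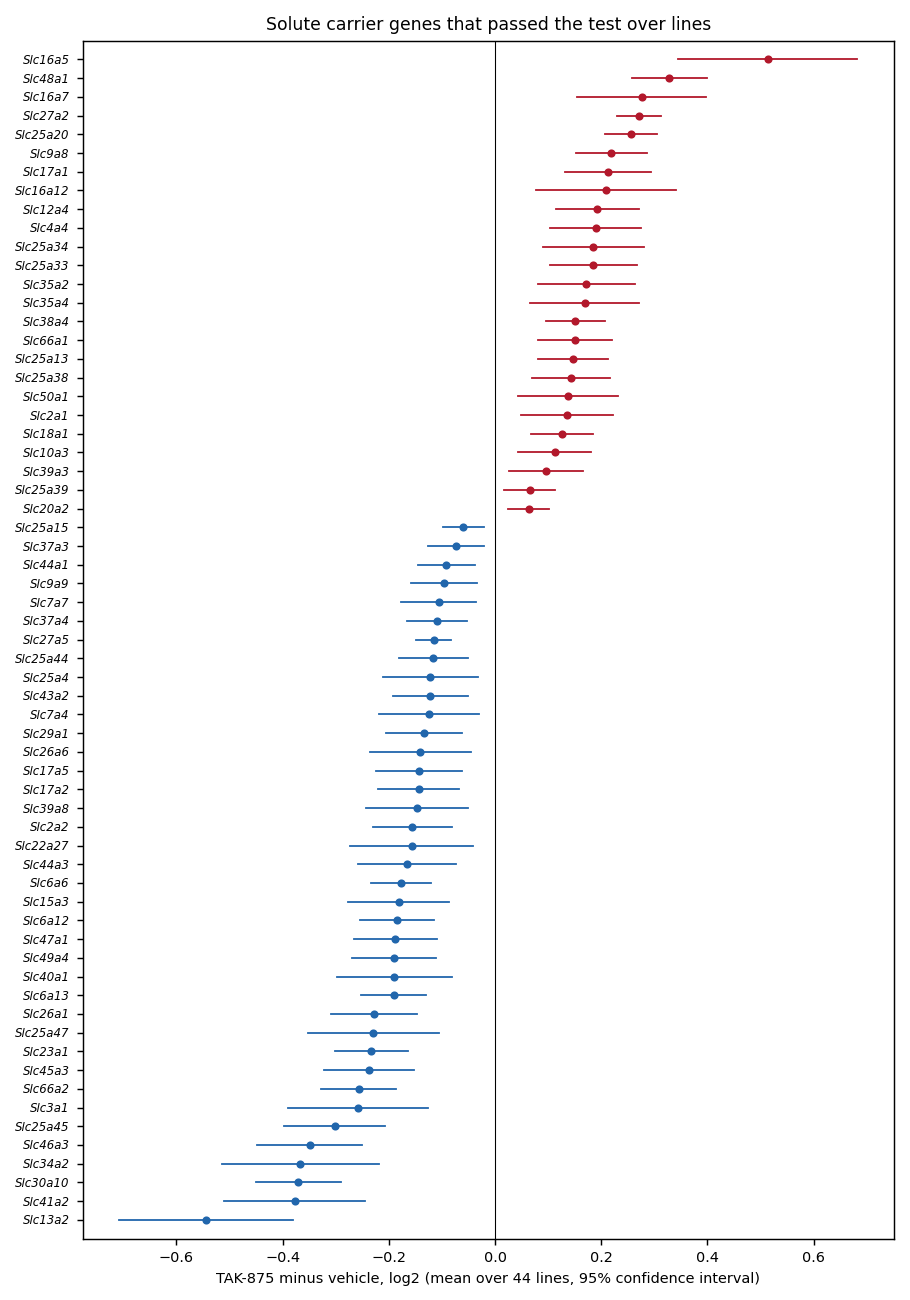
The 63 solute carrier genes that passed the test over lines, with the mean log2 difference between TAK-875 and vehicle over 44 lines (point) and its 95% confidence interval (bar), red for higher and blue for lower. The changes run from -0.54 for Slc13a2 to 0.51 for Slc16a5.

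Sorted by family number into transport classes, the carriers moved in both directions in the larger classes. Among 31 mitochondrial and peroxisomal carriers 6 rose and 5 fell (3 fell without the first or the third strain pair), with a median change of 0.018. Among 28 amino acid transporters of the cell surface and lysosome 1 rose and 7 fell (4 without the second strain pair), with a median of -0.03. Of 20 genes in the zinc families, 1 rose (Slc39a3, lost in 6 of 12 alternatives) and 2 fell. Of 7 monocarboxylate transporters 3 rose and none fell, with changes from 0.0094 to 0.51 and a median of 0.15. Over all genes 15.3% were higher and 11.9% lower, with a median change of 0.0056. Counts by class, family or list, here and below, stand beside these shares. No test was made of a class as a whole.

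**Figure D2:**
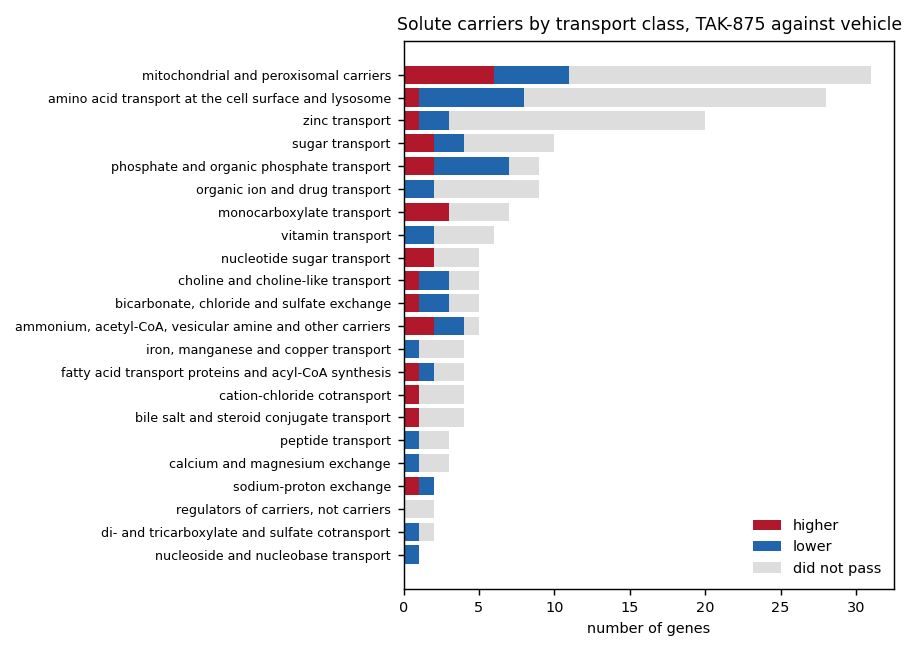
Number of solute carrier genes in each transport class (bar length) that were higher (red) or lower (blue) with TAK-875 in the mean over lines, or did not pass (grey). In the class of phosphate and organic phosphate transport, 7 of 9 genes passed, 2 higher and 5 lower (3 lower without the second strain pair). Of all genes measured 27.1% passed.

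A pair of genes that serve fatty acid oxidation rose in nearly every line. Slc27a2, a fatty acid transport protein that also activates very long chain fatty acids with coenzyme A, ran from 11.15 to 12.37 (median 11.96) on vehicle arrays and from 11.38 to 12.82 (median 12.20) on TAK-875 arrays. It rose by 0.27 ± 0.14 (SD, 44 lines; limma adjusted p = 4.6e-14), and 43 of 44 lines were higher. Slc25a20, the carnitine-acylcarnitine carrier that brings long-chain acyl groups into mitochondria, ran from 9.57 to 11.10 (median 10.49) with vehicle and from 9.87 to 11.52 (median 10.71) with TAK-875. The ranges of both genes overlapped over most of their length while the medians moved up. Slc25a20 rose by 0.26 ± 0.16 in 42 lines (adjusted p = 1.94e-11), and its second probe set rose too, by 0.28. Their promoters are shown because no other carriers rose in as many lines apart from Slc48a1. The 250 bases before the start, on the plus strand of GRCm38.p6 (RefSeq), are chr2:126552774-126553023 for Slc27a2 and chr9:108661886-108662135 for Slc25a20.
Slc27a2: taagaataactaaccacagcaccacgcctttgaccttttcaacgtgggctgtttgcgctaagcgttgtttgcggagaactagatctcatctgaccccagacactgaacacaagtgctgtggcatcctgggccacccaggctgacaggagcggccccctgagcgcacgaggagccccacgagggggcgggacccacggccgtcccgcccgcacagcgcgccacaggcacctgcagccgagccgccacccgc
Slc25a20: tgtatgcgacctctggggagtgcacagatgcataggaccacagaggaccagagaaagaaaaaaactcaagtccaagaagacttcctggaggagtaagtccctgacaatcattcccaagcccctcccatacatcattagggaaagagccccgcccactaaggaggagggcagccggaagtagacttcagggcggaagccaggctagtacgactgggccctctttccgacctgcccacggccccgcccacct
All letters are in lower case because none of the motifs searched (spelled out with the promoter windows further on) was found in either stretch.

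Other genes of fatty acid handling did not follow as a group. Slc27a5, of the same family as Slc27a2, joins bile acids and fatty acids to coenzyme A in hepatocytes. It ran from 11.12 to 12.11 (median 11.71) with vehicle and from 10.94 to 12.28 (median 11.59) with TAK-875. It fell by 0.12 ± 0.11 (adjusted p = 2.82e-07), in 36 of 44 lines, so the family's called members moved in opposite directions. Slc27a1 and Slc27a4, which carry fatty acids in other tissues, did not pass, at 0.06 and 0.05. PPARA is the nuclear receptor that drives hepatic fatty acid oxidation genes. Of 8 measured carriers that textbooks list as its targets, 3 rose and none fell (15.3% and 11.9% over all genes), with a list median of 0.064. The called ones were Slc27a2, Slc25a20 and Slc25a34, a mitochondrial carrier, which rose by 0.19 ± 0.32 in 34 lines (adjusted p = 0.0021). The rest ran from 0.0094 for the lactate and pyruvate transporter Slc16a1 to 0.068 for the dicarboxylate carrier Slc25a10. Among genes outside the symbol rule, the fatty acid receptor and uptake protein Cd36 rose by 0.18 ± 0.39 (adjusted p = 0.0169), a call that was lost without the first strain pair of each line (0.12, adjusted p = 0.176). Mfsd2a, a carrier of lysophosphatidylcholine, rose by 0.60 ± 1.04 in 30 lines (adjusted p = 0.00145).

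The largest rise was in the monocarboxylate family, whose members carry lactate, ketone bodies, creatine and related acids. Slc16a5, a member that also carries drugs, ran from 3.66 to 8.59 (median 5.80) with vehicle and from 3.92 to 8.75 (median 6.45) with TAK-875. Both treatments covered nearly the whole range, and vehicle levels had an SD of 0.74 between lines and 0.71 within lines. Slc16a5 rose by 0.51 ± 0.59 (1.43-fold; adjusted p = 4.21e-06), and 34 lines were higher and 10 lower. Slc16a7, a high-affinity pyruvate and lactate transporter, ran from 5.14 to 8.21 (median 6.99) with vehicle and from 5.60 to 8.58 (median 7.25) with TAK-875. It rose by 0.28 ± 0.42 in 32 lines (adjusted p = 0.000358). Slc16a12, a creatine transporter, rose by 0.21 ± 0.46 in 29 lines (adjusted p = 0.0135). That call was lost without the first strain pair of each line, where the change was 0.10 (adjusted p = 0.284). Of the partner proteins that bring monocarboxylate transporters to the cell surface, embigin (Emb) rose by 0.14 ± 0.23 and basigin (Bsg) fell by 0.13 ± 0.16 (adjusted p = 0.00168 and 3.01e-05).

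The largest fall was that of Slc13a2, a sodium-coupled transporter of succinate, citrate and other dicarboxylates. It ran from 3.04 to 8.57 (median 5.94) with vehicle and from 3.14 to 8.57 (median 4.97) with TAK-875. The ranges were nearly the same, and the middle of the TAK-875 arrays lay lower. Slc13a2 fell by 0.54 ± 0.56 (1.46-fold; adjusted p = 7.05e-07) in 38 of 44 lines.

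Carriers of metals and haem moved in both directions. Slc30a10, which by family number stands among zinc transporters but exports manganese from hepatocytes, ran from 6.67 to 9.12 (median 8.28) with vehicle and from 6.30 to 8.76 (median 7.93) with TAK-875. It fell by 0.37 ± 0.27 (adjusted p = 3.68e-10) in 42 lines, and its second probe set fell by 0.44. Slc41a2, a magnesium transporter, ran from 5.85 to 10.87 (median 8.41) with vehicle and from 5.14 to 10.17 (median 8.09) with TAK-875. In both genes the lowest, middle and highest TAK-875 arrays all sat lower, while the treatments overlapped. Slc41a2 fell by 0.38 ± 0.46 (adjusted p = 1.31e-05) in 35 lines. Slc48a1, a haem transporter of lysosomes and endosomes that the grouping by family placed beside the choline transporters, ran from 6.68 to 9.40 (median 7.84) with vehicle and from 7.08 to 9.10 (median 8.14) with TAK-875. It rose by 0.33 ± 0.24 (adjusted p = 4.18e-10) in 42 lines, and its second probe set rose by 0.13.

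Among 8 measured carriers of iron, manganese and zinc in liver, 1 rose and 3 fell (15.3% and 11.9% over all genes). Slc40a1 (ferroportin), the iron exporter of Kupffer cells and hepatocytes, ran from 8.03 to 10.32 (median 9.28) with vehicle and from 5.06 to 10.31 (median 9.14) with TAK-875. It fell by 0.19 ± 0.37 (adjusted p = 0.00591) in 32 lines. Without the fourth strain pair of each line the change was -0.10 and did not pass (adjusted p = 0.15). Slc39a8, which takes up manganese and zinc, fell by 0.15 ± 0.33 (adjusted p = 0.0177), and that call too was lost without the fourth pair (-0.11, adjusted p = 0.14). Slc25a38, a mitochondrial glycine carrier needed for haem synthesis, rose by 0.14 ± 0.24 (adjusted p = 0.00221). The zinc and iron importer Slc39a14 did not pass, at 0.10. Macrophages also carry ferroportin, and the macrophage markers fell by a median of 0.22. Their part in the fall of Slc40a1 was not tested. The macrophage metal transporter Slc11a1 stood at -0.07 and did not pass (adjusted p = 0.32). It was picked after its values were seen.

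Among amino acid transporters, 3 of 5 members of the family Slc6 fell and none rose. In liver this family takes up betaine, taurine and related osmolytes. Slc6a13 ran from 9.68 to 11.20 (median 10.49) with vehicle and from 9.14 to 11.02 (median 10.27) with TAK-875. It fell by 0.19 ± 0.21 (adjusted p = 3.01e-06) in 37 lines. Its chromosomal neighbour Slc6a12, the betaine transporter, ran from 7.41 to 8.95 (median 8.08) with vehicle and from 6.74 to 8.78 (median 7.95) with TAK-875. Both genes overlapped widely between treatments. Slc6a12 fell by 0.18 ± 0.23 (adjusted p = 4.16e-05) in 35 lines. The taurine transporter Slc6a6, named to complete the family after its values were seen, fell by 0.18 ± 0.19 (adjusted p = 2.41e-06).

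Slc3a1, the heavy subunit of the cystine and dibasic amino acid transporter, ran from 3.88 to 10.39 (median 8.71) with vehicle and from 3.63 to 10.35 (median 8.44) with TAK-875. It fell by 0.26 ± 0.45 (adjusted p = 0.00206) in 34 lines, on top of a far larger spread between lines described below. The 1 amino acid transporter that rose was Slc38a4, a hepatic carrier of neutral amino acids, which ran from 9.97 to 11.29 (median 10.63) with vehicle and from 10.17 to 11.77 (median 10.78) with TAK-875. Slc38a4 rose by 0.15 ± 0.19 (adjusted p = 2.73e-05) in 34 lines. This rests on 1 probe set, since the second stood at -0.01, and the mean of both did not pass (0.07, adjusted p = 0.265). None of 8 measured amino acid transporters known as targets of ATF4, the factor of the amino acid and stress response, passed the limma test in either direction, and 0 of 8 had an unadjusted p under 0.05. Their changes ran from -0.04 to 0.06.

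Sugar and phosphate carriers that release glucose fell a little. Slc2a2 (GLUT2), the main glucose transporter of the hepatocyte surface, ran from 8.22 to 11.75 (median 11.06) with vehicle and from 8.40 to 11.68 (median 10.87) with TAK-875. It fell by 0.16 ± 0.25 (adjusted p = 0.00102) in 35 lines. Slc37a4, which moves glucose 6-phosphate into the endoplasmic reticulum, ran from 9.84 to 11.47 (median 10.55) with vehicle and from 9.60 to 11.56 (median 10.41) with TAK-875. Neither gene's arrays separated by treatment. Slc37a4 fell by 0.11 ± 0.19 (adjusted p = 0.0025) in 33 lines. Slc2a1 (GLUT1), the widespread glucose transporter, rose by 0.14 ± 0.29 (adjusted p = 0.0143), but not without the second or the fourth strain pair (0.12 and 0.10, adjusted p = 0.0564 and 0.132). Slc2a5 and Slc2a9, carriers of fructose and urate, did not pass, at 0.04 and 0.05. Slc45a3, another sugar transporter, fell by 0.24 ± 0.29 (adjusted p = 1.69e-05) in 36 lines, as did its second probe set, by 0.23.

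Of the phosphate and organic anion genes, Slc34a2, a sodium-phosphate cotransporter of epithelia, ran from 3.45 to 9.62 (median 5.63) with vehicle and from 3.70 to 9.02 (median 5.14) with TAK-875. It fell by 0.37 ± 0.51 (adjusted p = 0.000113) in 32 lines. Cholangiocytes are among the cells known to make Slc34a2. Their part in its fall was not tested. Of 5 listed cholangiocyte markers 2 were measured, both at low levels (vehicle means of 3.79 for Krt19 and 4.01 for Sox9). Neither passed, with changes of 0.08 for Krt19 and 0.01 for Sox9. Slc17a1, a urate and organic anion transporter, rose by 0.21 ± 0.27 (adjusted p = 4.66e-05) in 34 lines, while its family member Slc17a2 fell by 0.14 ± 0.26 (adjusted p = 0.00299) on the chosen probe set and by 0.23 on the second.

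Of 6 genes in the vitamin transport families 2 fell and none rose (11.9% and 15.3% over all genes). Slc46a3, placed there by family and known as a lysosomal transporter, ran from 5.86 to 9.22 (median 8.46) with vehicle and from 5.15 to 9.11 (median 8.08) with TAK-875. It fell by 0.35 ± 0.34 (adjusted p = 2.09e-07) in 37 lines. Slc23a1, a sodium-dependent vitamin C transporter, ran from 7.67 to 9.25 (median 8.71) with vehicle and from 6.19 to 9.30 (median 8.51) with TAK-875. The lowest arrays of both genes were in the TAK-875 group, and the upper ends nearly met. Slc23a1 fell by 0.23 ± 0.23 (adjusted p = 4.57e-07) in 38 lines. Among 9 organic ion and drug transporters 2 fell (1 without the second or the third strain pair) and none rose, beside the same shares. Slc47a1 (MATE1), which exports organic cations and drugs such as metformin, fell by 0.19 ± 0.27 (adjusted p = 0.000162) in 34 lines. Among lysosomal and other carriers outside these classes, Slc66a1, which exports cationic amino acids from lysosomes, rose by 0.15 ± 0.23 (adjusted p = 0.000664) in 32 lines. Slc66a2 and Slc49a4 fell by 0.26 ± 0.24 and 0.19 ± 0.26 (adjusted p = 1.12e-07 and 0.000161).

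Exchangers and cotransporters of protons, bicarbonate, sulfate and chloride went both ways. Slc9a8, a sodium-proton exchanger of the Golgi and endosomes, ran from 4.13 to 6.38 (median 5.45) with vehicle and from 4.92 to 6.37 (median 5.69) with TAK-875. It rose by 0.22 ± 0.22 (adjusted p = 9.7e-07) in 38 lines. Slc4a4, a sodium-bicarbonate cotransporter, rose by 0.19 ± 0.29 (adjusted p = 0.000485) in 34 lines, and each of its 3 probe sets rose, by 0.17 to 0.29. Slc12a4, a potassium-chloride cotransporter, rose by 0.19 ± 0.26 (adjusted p = 0.000136) in 32 lines. Slc26a1, the sulfate exchanger of the hepatocyte surface, fell by 0.23 ± 0.27 (adjusted p = 1.27e-05) in 37 lines. Slc26a6, a chloride, bicarbonate and oxalate exchanger, fell by 0.14 ± 0.32 (adjusted p = 0.0203), a call lost in 3 alternatives, the first or the third strain pair left out among them. The endosomal Slc9a9, named after its values were seen, fell by 0.10 ± 0.19 (adjusted p = 0.0151). Slc18a1, a vesicular amine transporter, rose by 0.13 ± 0.18 (adjusted p = 0.000736) in 36 lines.

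Within mitochondria, the calls besides Slc25a20 and Slc25a34 went both ways. Slc25a13 (citrin), the aspartate-glutamate carrier of the malate-aspartate shuttle and urea cycle, rose by 0.15 ± 0.22 (adjusted p = 0.000485) in 31 lines. Slc25a15, the ornithine carrier of the urea cycle, fell by 0.06 ± 0.13 (adjusted p = 0.0156). Slc25a47, a carrier enriched in liver, ran from 9.15 to 11.77 (median 10.89) with vehicle and from 9.07 to 13.46 (median 10.45) with TAK-875. The highest array was a TAK-875 array although the group's median lay below that of vehicle. Slc25a47 fell by 0.23 ± 0.43 (adjusted p = 0.00347) in 31 lines. Slc25a45 ran from 6.41 to 9.05 (median 8.14) with vehicle and from 5.17 to 8.88 (median 7.82) with TAK-875, and fell by 0.30 ± 0.32 (adjusted p = 1.85e-06) in 39 lines. Of 6 measured carriers of the malate-aspartate shuttle, citrate export and urea cycle, 1 rose and 1 fell. Of 5 for phosphate, ADP and ATP, only Slc25a4 passed, which fell by 0.12 ± 0.30 (adjusted p = 0.0365) and lost the call without strain pair number 1, 2 or 3 (adjusted p = 0.0529 to 0.357). The abundant housekeeping carriers of phosphate (Slc25a3) and of ADP and ATP (Slc25a5) did not pass, at 0.02 and -0.03.

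Some promoters of the called genes hold a direct repeat of the kind bound by nuclear receptors, and these stretches are shown as the sequence context of genes that moved. The 250 bases before to 50 after each RefSeq start were searched on both strands for AGGTCANAGGTCA with up to 2 mismatches, for the E-box CACGTG and for the D-box TTATGNAA. Overlaps between motifs were not counted. The repeat was found for 3.49% of 7421 measured genes with a promoter in the table and for 6.06% (8 of 132) of the carriers with one. The E-box was found for 10.2% and 18.2% (24 of 132), and the D-box for 2.63% and 3.03% (4 of 132). The called carriers with the repeat were Slc17a1, which rose, and Slc25a45, Slc25a47, Slc37a4, Slc6a12 and Slc6a13, which fell. Their windows lie at chr13:23868776-23868804, chr19:5877764-5877792, chr12:108850968-108850996, chr9:44396804-44396832, chr6:121342690-121342718 and chr6:121303400-121303428 of GRCm38.p6, in that order. They are printed on the plus strand, except those of Slc25a47 and Slc6a13, which are on the minus strand. Capitals mark the match.
Slc17a1: ttgaaggtAGGTACTAGGTCAgtagttac
Slc25a45: agaacatgAGGTCAGAGGAGAagggcggt
Slc25a47: gggaaagcATGTGAGAGGTCAtgggaggt
Slc37a4: tcgacgaaACGTAATAGGTCAtgtggtgc
Slc6a12: ggagcaggAGGAGAGAGGTCAgggaggta
Slc6a13: agccatgaAGGTCAAAGATTAtgattcta
A match describes letters only, and no binding was measured.

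The second comparison was of vehicle mice between lines. Levels differed between lines (limma F test over 44 lines, adjusted p of 0.05) for 164 of the 169 genes (97.0%), against 98.0% of all genes. Slc22a12, Slc22a13, Slc27a1, Slc2a3 and Slc45a1 did not pass. The SD between lines, after the variance within lines was subtracted, had a median of 0.28 over the carriers and 0.25 over all genes. It reached 0.5 or more for 19 carriers. The 10 with the largest SD are described next, as levels chosen for their spread and with no further test. In the steps made here no probe was masked for variants of the founder strains, and masking before deposit was not checked. Lines that differ in expression and lines that differ in probe binding thus cannot be told apart here, under either treatment.

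Slc3a1 had the widest spread, with an SD between lines of 1.72 and line means from 4.42 to 10.07. There was a gap of 1.86 between 9 lines at or below 5.46 (CC029/Unc, CC021/Unc, CC060/Unc, CC058/Unc, CC019/TauUnc, CC071/TauUnc, CC052/GeniUnc, CC070/TauUnc and CC024/GeniUnc) and 35 lines at or above 7.32. In CC029/Unc the 4 vehicle mice stood at 4.77, 4.37, 3.88 and 4.67, and in CC011/Unc at 10.05, 10.21, 9.71 and 10.33. The mice of these lines did not overlap. In TAK-875 mice, which are other animals, the 9 low lines had means of 4.25 to 5.51 and the other 35 lines 5.78 to 9.74. The same lines were thus low under both treatments.

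Slc22a26, Slc22a27 and Slc22a30 are organic anion transporters of 1 family, and line CC052/GeniUnc stood far from the median line for each. Slc22a26 line means were at or below 5.46 in 42 lines, with CC033/GeniUnc at 6.85 and CC052/GeniUnc at 7.69. The CC052/GeniUnc vehicle mice stood at 8.80, 6.53, 9.30 and 6.13, so mice of this line also differed from each other. Slc22a30 ran the other way. Its means were 6.42 in CC052/GeniUnc and 7.14 in CC071/TauUnc, against 8.47 or above in the other 42 lines. In TAK-875 mice CC052/GeniUnc and CC071/TauUnc again had the lowest Slc22a30 means, 5.50 to 6.04, and the other lines 8.55 to 10.34. Slc22a27 stood at 7.57, 5.34, 7.64 and 4.40 in the CC052/GeniUnc vehicle mice, a mean of 6.24 beside a median line of 3.64 and a highest line of 6.46. Its probe set may hybridise with unrelated transcripts, and near-identical copies of this family may share signal.

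Slc34a2 line means ran from 4.10 to 8.88, and 4 lines (CC053/Unc, CC012/GeniUnc, CC032/GeniUnc and CC017/Unc) stood at 8.01 or above while the others reached 7.18 at most. In TAK-875 mice these 4 lines had Slc34a2 means of 6.57 to 8.32 and the others 3.94 to 6.98, so the groups overlapped. Slc13a2 ran from 3.67 in CC052/GeniUnc to 8.20 in CC070/TauUnc with no wide gap. Slc37a1, of the sugar-phosphate exchanger family, was high in CC011/Unc alone, whose vehicle mice stood at 7.72, 6.72, 6.36 and 8.28 against means of at most 5.89 in the other lines. The CC011/Unc TAK-875 mice had a mean of 6.77, above the 5.24 reached by any other line. Slc15a2, a peptide transporter, was at or below 4.63 in 40 lines, and CC010/GeniUnc, CC061/GeniUnc, CC004/TauUnc and CC037/TauUnc stood at 5.05 to 5.84. Slc39a2, Slc16a5 and Slc25a30 graded from 3.02 to 6.11, 4.15 to 7.72 and 5.20 to 8.26 with a largest gap of 0.36, 0.43 and 0.32.

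**Figure D3:**
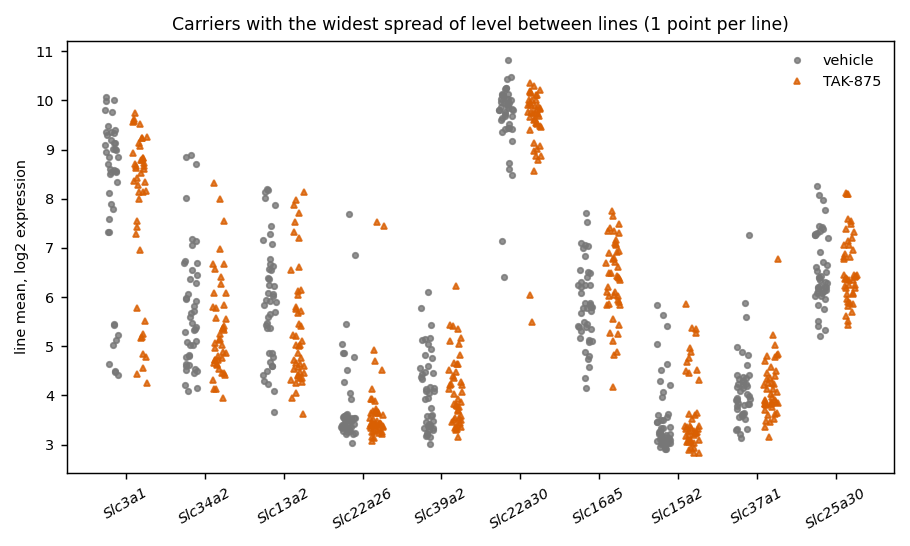
Line means of log2 expression for the 10 solute carriers with the largest SD between lines in vehicle mice, 1 point per line, grey circles for vehicle and orange triangles for TAK-875. Slc3a1 splits into 9 low and 35 high lines, and CC011/Unc stands alone for Slc37a1.

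The third comparison asked whether the response to TAK-875 differed between lines. An F test on the 171 pair differences with 1 mean per line called 29 of the 169 genes (17.2%), against 16.2% of all genes. Of these, 7 had also passed in the mean over lines: Slc16a7, Slc25a39, Slc30a10, Slc39a8, Slc49a4, Slc6a12 and Slc6a13. The count depended on each strain pair. It was 6, 7, 3 and 17 when strain pair number 1, 2, 3 or 4 of each line was left out, while the share over all genes fell to 2.64%, 1.52%, 1.42% and 7.6%. Of the 8 genes described next, Slc39a10 passed in 3 of these 4 settings, Slc39a5 and Slc7a14 in 2, and Slc10a7 and Slc15a2 in 1. Slc16a7, Slc25a16 and Slc25a46 passed in 0 of 4, with adjusted p from 0.0515 to 0.31. Without the 15 pairs that hold a poorly correlated array the count was 31, of which 23 were shared, and Slc25a46 did not pass (adjusted p = 0.0756). Slc39a10, Slc39a5, Slc15a2 and Slc7a14 were dim, with median vehicle levels of 4.57, 4.14, 3.25 and 3.83. They were among the dimmest 25% of genes and so were not tested in the setting that left those genes out.

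Slc39a10, a zinc importer, had the largest SD of response between lines, 0.42 (adjusted p = 0.00158), although its mean over lines was 0.13 and did not pass. In CC070/TauUnc the 4 vehicle mice stood at 4.59, 3.61, 3.54 and 4.13 and their TAK-875 partners at 6.02, 4.70, 5.12 and 5.69. The groups did not overlap, and the mean difference was 1.41 (adjusted p = 0.0138), the highest of all lines. In CC005/TauUnc it rose with pair differences of 1.29, 0.71, 1.25 and 1.54 (adjusted p = 0.013). In CC052/GeniUnc it fell by 1.15 (adjusted p = 0.0124), with pair differences of -2.80, -1.28, 0.34 and -0.88. Their SD was 1.29, beside an SD within lines of 0.67 in the shared fit. CC070/TauUnc and CC052/GeniUnc were picked as the lines with the highest and lowest response of Slc39a10. Lines for the other genes chosen for their spread of response were picked in the same way, from the same data. That choice favours large changes without overlap. The adjusted p within a line covers the genes tested in it, not the choice among lines.

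Slc39a5, another zinc importer, fell in CC028/GeniUnc from 4.54, 4.29, 4.41 and 4.91 to 3.69, 3.40, 2.94 and 3.68, with no overlap (mean -1.11, adjusted p = 0.000957). In CC061/GeniUnc the difference had the opposite sign in all 4 pairs, 0.69 to 0.98, and the line did not pass (adjusted p = 0.0889). Slc15a2 in CC029/Unc went from 2.91, 3.16, 3.45 and 3.05 to 4.41, 3.52, 4.91 and 5.26, again with no overlap (mean 1.38, adjusted p = 0.000121). With the mean of both its probe sets, Slc15a2 did not pass the F test (adjusted p = 0.113).

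CC005/TauUnc was a line in which several of these genes rose. There Slc10a7, of the bile salt transporter family, rose by 1.18 (adjusted p = 0.00399), from 3.29, 4.69, 4.68 and 4.82 to 5.39, 5.83, 5.37 and 5.60. Slc16a7 rose by 1.07 (adjusted p = 0.0124), with pair differences of 1.96, 1.55, 0.49 and 0.28. Slc25a16, a mitochondrial carrier, rose by 0.92 (adjusted p = 0.0131). In each of these genes all 4 CC005/TauUnc pairs went up. In CC041/TauUnc, Slc16a7 had a mean difference of -0.53 that did not pass (adjusted p = 0.206), and Slc25a46, a protein of the outer mitochondrial membrane, fell by 1.07 in all 4 pairs (adjusted p = 0.0263). Slc7a14, a lysosomal member of the cationic amino acid family, fell by 0.88 in CC052/GeniUnc (adjusted p = 0.0411), a call that was lost without the poorly correlated pair of that line (-0.72, adjusted p = 0.209). 

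**Figure D4:**
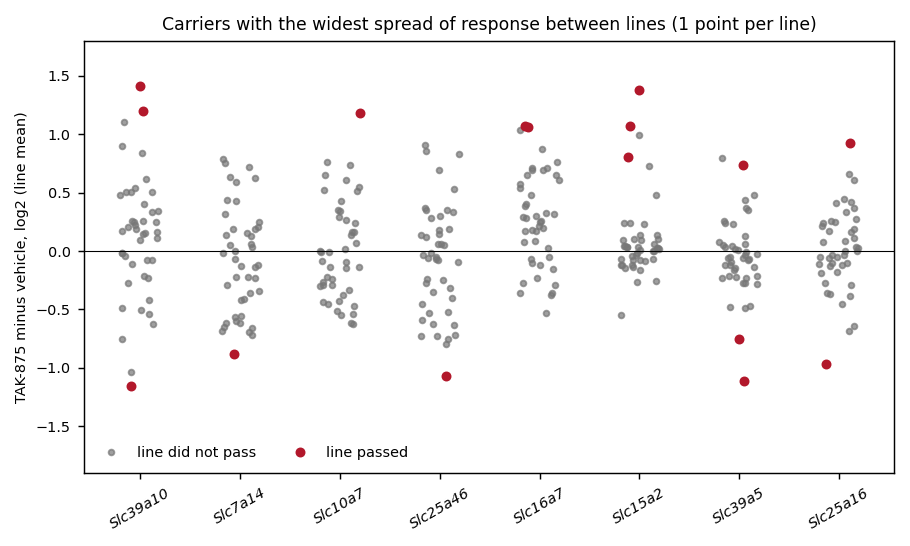
Response to TAK-875 (line mean of pair differences, log2) for the 8 solute carriers whose response varied most between lines, 1 point per line. Red marks lines that passed, with p adjusted over genes within each line and a spread estimate shared by all lines. Slc39a10 spans from -1.15 in CC052/GeniUnc to 1.41 in CC070/TauUnc.

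Counted line by line, 22 of 44 lines had at least 1 carrier past the threshold. In the 22 lines with none, at most 0.49% of all genes passed (CC006/TauUnc). The highest counts were 24 of 169 in CC052/GeniUnc (14.2%, against 11.3% of all genes in that line), 20 in CC005/TauUnc (11.8%, against 11.3%) and 17 in CC041/TauUnc (10.1%, against 15.4%). Leaving out the 15 pairs with a poorly correlated array gave 22 carriers in CC052/GeniUnc, which lost 1 pair (13.0%, against 5.95% of all genes). It gave 33 in CC005/TauUnc (19.5%, against 17.4%) and 33 in CC041/TauUnc (19.5%, against 21.4%). These last lines held none of the 15 pairs, so their own data were unchanged. Only the spread estimate that they share with the other lines differed. CC010/GeniUnc and CC042/GeniUnc each lost their 12 calls, while the share over all genes went from 2.63% to 0% and from 3.96% to 0.077%. CC015/Unc went from 9 to 1 (2.21% to 0.407% of all genes). CC053/Unc, with 12 (4.34% of all genes), had no pair left. The losses were thus shared by genes at large. In CC052/GeniUnc Slc16a5 rose by 1.79 (adjusted p = 0.00597), from 6.90, 3.68, 5.68 and 4.22 to 6.83, 7.30, 6.46 and 7.05. There Slc22a27 fell by 1.48 (adjusted p = 0.00026), with pair differences of -3.01, 1.12, -3.20 and -0.84, and did not pass without the poorly correlated pair (-0.91, adjusted p = 0.0915). The SD of the pair differences in this line was 1.72 for Slc16a5 and 2.04 for Slc22a27. In the fit shared by all lines the SD within lines was 0.96 and 0.61. In CC005/TauUnc Slc16a12 rose by 1.08 (adjusted p = 0.0288) in all 4 pairs. In CC041/TauUnc Slc7a13, an aspartate and glutamate transporter, rose with pair differences of 0.53, 0.67, 2.01 and 1.58 (adjusted p = 0.0016). Slc12a2, the sodium-potassium-chloride cotransporter, fell in CC041/TauUnc by 1.04 (adjusted p = 0.0131), in all 4 pairs.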

How the data were processed

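The deposited table holds log2 expression values. Per the submitters' processing notes, RMA and Affymetrix Power Tools were used, and their versions and the build are not given in the sources. Values ran from 1.62 to 13.81, and array medians differed, so other scalings were tried. In the steps made here no probe set was removed as undetected, and no probe was masked for variants of the founder strains. Whether either was done before deposit was not checked. Of 16397 probe sets, 13083 name 1 gene in the platform's table and were used. The chosen probe sets of 9 carriers may hybridise with unrelated transcripts and those of 7 with several family transcripts. For 53 carriers several probe sets exist, and in 1 (Slc38a10) they were called in both directions. Of the called carriers 20 have several, and in 12 of these every probe set was called the same way. The second probe sets of Slc66a2 and Slc39a8 stood at -0.10 and -0.11 and did not pass. The other probe sets of Slc22a27 also did not pass, at -0.10 each.

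Tests used limma 3.58.1 in R 4.3.3 (two-sided, eBayes with a variance trend), with adjustment over 9093 genes. The line was the unit of the mean test, since mice of a line share a genotype. The SD between lines had the variance within lines subtracted. The scripts were tested on simulated data. Scripts ran in Python 3.11.15 with numpy 2.4.6, pandas 2.3.3 and matplotlib 3.10.9. Pairs come from the labels' protocols, which state that mice were treated in pairs. As a check, the deviations of paired arrays from the mean of their group had an average correlation of 0.0301, over 0.1 in 58 of 171 pairs.

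The carriers, transport classes, gene lists, markers and motifs were chosen with earlier results of these data known. Genes named were up to 12 rises and 12 falls shared by at least 33 of 44 lines (10 rises qualified), the 10 with the largest SD of vehicle level and the 8 with the largest SD of response, up to 3 called per class of at least 3, up to 4 per list and up to 3 in each of 3 lines. Others were named to complete a count or as context, after their values were seen. Line counts without poorly correlated pairs were added after seeing the data. The study names 45 lines, and 44 are analysed here.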

Additional observations from a re-analysis of the deposited data

Results flagged for a closer look

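Among 47 sets of 4 values (a line's vehicle levels or pair differences of a named carrier), 3 held a value far from the other 3. A set is picked out this way by chance about 1 time in 20. Slc22a30 stood at 10.49 in 1 vehicle mouse of CC041/TauUnc, with the others at 10.89 to 10.95. Slc16a5 stood at 5.37 in 1 vehicle mouse of CC058/Unc, with the others at 3.67 to 3.92. Slc16a7 had a pair difference of -0.88 in 1 pair of CC041/TauUnc, with the others at -0.45 to -0.38.

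The response to TAK-875 differed between lines by limma's F test for 17 named carriers, 8 of them named because they passed this test. It did so for 29 of all 169 carriers (17.2%), against 16.2% of all genes. With 1 strain pair number left out, the 29 became 3 to 17, and Slc16a7, Slc25a16 and Slc25a46 passed in 0 of these 4 settings. Among zinc and manganese transporters the adjusted p was 0.00158 for Slc39a10, 0.00265 for Slc30a10, 0.00459 for Slc39a5 and 0.0345 for Slc39a8. Among mitochondrial carriers it was 0.0162 for Slc25a10, 0.0251 for Slc25a16, 0.0274 for Slc25a12 and 0.0327 for Slc25a46. For amino acid and osmolyte carriers it was 0.00865 for Slc7a14, 0.0114 for Slc6a12, 0.0293 for Slc6a13 and 0.0456 for Slc7a13. The remaining values were 0.00571 for Slc10a7, 0.0129 for Slc49a4, 0.0168 for Slc15a2, 0.0276 for Slc16a7 and 0.0341 for Slc2a9. Slc30a10, Slc6a12, Slc6a13, Slc39a8, Slc49a4 and Slc16a7 had also passed in the mean over lines.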

How the results depend on the processing

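Over 12 alternatives, the count of carriers called in the mean over lines ran from 51 to 71 beside 63. With the study pair as replicate block and unit it was 71 (29 higher, 42 lower), and it was also 71 with no block and the array as the unit. Both sets included the 63. The share of higher calls ran from 34.8% to 43.9%, beside 39.7%. Of 53 called genes among the 79 named, 36 kept direction and call in every setting, 17 lost the call in at least 1, and no direction was reversed. Slc39a3 lost it in 6 settings and Slc50a1 in 4. Over the settings that left out 1 strain pair number, the count of carriers whose response differed between lines ran from 3 to 17, beside 29. Those settings leave 3 pairs or fewer in a line. Signal over background was not used here, so dim carriers were tested like the others. With the dimmest 25% of genes left out 61 of 128 carriers were called, 60 of them also among the 63. The share of all genes called in the mean over lines was not set beside the counts of each alternative. A higher or lower count there is thus not read as a result about carriers.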

Other observations

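In CC010/GeniUnc the mice of the second strain pair stood apart for the peptide transporter Slc15a2. The 4 vehicle mice had log2 levels of 6.20, 2.94, 5.51 and 5.56, and their TAK-875 partners 5.38, 2.73, 6.04 and 3.86, so the lowest mouse of each treatment belonged to the same pair. The mitochondrial carrier Slc25a30 varied widely between mice of CC058/Unc, with pair differences of 2.17, -1.43, 0.69 and -2.01. In CC004/TauUnc its pair differences were 0.80, -1.95, -0.41 and 1.68. Its mean over lines was 0.01, and none of its 3 probe sets passed.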
